A study of Mus musculus with 29 samples.

Results

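Astrocytes clear glutamate from the space around synapses through sodium-coupled transporters of the SLC1 family. Inside the astrocyte, glutamine synthetase converts glutamate to glutamine, glutamine leaves through SLC38 transporters, and neurons take it up and form glutamate again. Metabotropic glutamate receptors on astrocytes and neurons sense the same transmitter. The 9 genes described here cover these steps: the transporters Slc1a2 (GLT-1), Slc1a3 (GLAST) and Slc1a1 (EAAC1, the neuronal form), the enzymes Glul (glutamine synthetase) and Glud1 (glutamate dehydrogenase), the glutamine carriers Slc38a3 (SNAT3) and Slc38a1 (SNAT1), and the receptors Grm3 and Grm5. They were taken by symbol from the 36172 gene rows of the deposited table, and all 9 were found, each on 1 row. No member fell below 202 counts in any library, so all 9 passed the filter on low counts in every comparison.

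The libraries came from TRAP-RNAseq, in which ribosomes carrying an EGFP-tagged L10a protein are pulled from a brain homogenate with anti-GFP beads and their RNA is sequenced. Every mouse carried the NuTRAP reporter and a tamoxifen-inducible cre and was given tamoxifen when about 3 months old. In Aldh1l1-cre/ERT2+; NuTRAP+ mice (Aldh1l1-NuTRAP) the tag is switched on in cells that use the Aldh1l1 promoter, chiefly astrocytes, and in Cx3cr1-cre/ERT2+; NuTRAP+ mice (Cx3cr1-NuTRAP) in cells that use the Cx3cr1 promoter, chiefly microglia. For 3 Aldh1l1-NuTRAP mice the bead-bound RNA (positive fraction) and the unbound RNA (negative fraction) were measured, and for 6 Cx3cr1-NuTRAP mice the positive fraction, the negative fraction and the cleared homogenate (input), with whole brain tissue from 5 of those 6. The mice of both sexes were used without a label for each, each pull-down came from 1 hemisphere of 1 mouse, and no mouse without cre or without tamoxifen was analysed here. Library totals ran from 4260949 counts, in the tissue of mouse 210, to 26857866 counts.

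The labelled cell types were checked on marker lists that share no gene with the 9 members. The summed level of 8 astrocyte markers was between 10560 and 12530 CPM (counts scaled to a library total of 1000000) in the Aldh1l1-NuTRAP positive fraction and between 1611 and 1753 CPM in the negative fraction. The summed level of 8 microglial markers was between 3187 and 7630 CPM in the positive fraction of the Cx3cr1-NuTRAP mice and between 390 and 427 CPM in their input. Neuronal markers were depleted in the Aldh1l1-NuTRAP positive fraction and still abundant in that of Cx3cr1-NuTRAP. In the first, 8 of them summed to between 1476 and 1949 CPM, against 6384 to 7647 CPM in its negative fraction. In the second they summed to between 5022 and 7749 CPM. Lower in the Aldh1l1-NuTRAP positive than negative fraction were 8 of 8 neuronal, 8 of 8 microglial and 7 of 8 oligodendrocyte markers. So were 3 of 4 oligodendrocyte precursor markers. The oligodendrocyte sums were 1178 to 1372 CPM in the positive and 6158 to 7460 CPM in the negative fraction. Markers of the choroid plexus, an epithelium that secretes cerebrospinal fluid, were also high in the Aldh1l1-NuTRAP positive fraction, where 5 of them summed to between 2906 and 3368 CPM against 484 to 633 CPM in the negative fraction. The 4 ependymal markers summed to between 55.3 and 87.1 CPM there against 21.8 to 36.5 CPM, and 2 of the 3 tested, Foxj1 and Rarres2, were higher, while Ccdc153 was not called and Tmem212 was too low to test. The 5 pericyte and smooth muscle markers summed to between 51.5 and 71.4 CPM against 30.8 to 49.0 CPM. Of the 4 of these tested, Pdgfrb was higher and Rgs5 (log2 fold change -0.68) and Kcnj8 (-0.97) were not called, Myh11 passed the filter on low counts only through the positive fraction, where it is high, and Acta2 was listed at 0. The part of RNA from these cell types in the results on the 9 genes was not tested. In such bulk samples, fewer cells of a type and less RNA per cell cannot be told apart.

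The glutamate transporters came first in the route. Slc1a2, which carries most glutamate uptake in the adult forebrain, reached 4248, 10150 and 8076 CPM in the Aldh1l1-NuTRAP positive fractions of mice 290, 293 and 294. The negative fractions of the same mice held 1198, 1866 and 1965 CPM. Every positive library exceeded every negative one, and mouse 290 was the lowest of the 3 in both fractions. The positive library of mouse 290 was the lowest for all 9 genes and had the lowest total, 11910851 counts against 20999571 and 22308992. Its astrocyte markers summed to 10560 CPM against 12490 and 12530 CPM, and its neuronal markers to 1476 CPM against 1928 and 1949 CPM. Its microglial sum was the highest, 137 CPM against 65.1 and 72.9 CPM. So was its choroid plexus sum, 3368 CPM against 2906 and 3083 CPM. Their part in the result was not tested. Slc1a2 lies on mm10 chr2:102658683-102790784, plus strand.

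Slc1a3, the second astrocytic transporter and the main one of cerebellar Bergmann glia, was at 2243, 2838 and 3367 CPM in the positive fractions and at 450, 455 and 530 CPM in the negative fractions. The positive fraction again lay above the negative fraction in each of the 3 mice. Within a mouse, the ratio of the CPM values ran from 4.99 to 6.35 for Slc1a3 and from 3.55 to 5.44 for Slc1a2. The gene lies on chr15:8634124-8710807, minus strand.

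Slc1a1, a transporter found mainly on neurons, went the other way. Its level was 21.99, 27.5 and 25.5 CPM in the positive fractions and 111, 124 and 125 CPM in the negative fractions of mice 290, 293 and 294. The groups were far apart, with the highest positive library below the lowest negative one. Slc1a1 lies on chr19:28835166-28913960, plus strand.

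In edgeR's quasi-likelihood test with Benjamini-Hochberg adjustment over 13319 genes, the Aldh1l1-NuTRAP positive fraction exceeded the negative fraction for Slc1a2 by 2.50 ± 0.34 on the log2 scale (SE, n = 3 and 3, adjusted p = 0.000818). The log2 fold change of Slc1a3 was 2.90 ± 0.18 (adjusted p = 5.17e-05) and that of Slc1a1 was -1.92 ± 0.15 (adjusted p = 9.23e-05). Both astrocytic transporters were enriched and the neuronal one was depleted, by amounts well above the spread between mice. Of all 9 genes, 6 were higher and 2 lower, where 26.8% of all tested genes were called higher and 24.8% lower. The median log2 fold change was 2.50 over the 9 genes and 0.04 over all genes tested. The genes were chosen with earlier results from these libraries known, so these counts describe them and are not independent evidence. Fold changes used TMM scaling, which sets the bulk of genes to no change. With library totals alone, the median of all genes fell to -0.31, all genes split into 2436 higher and 4824 lower in place of 3569 and 3299, and the 8 calls among the 9 genes stayed.

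**Figure D1:**
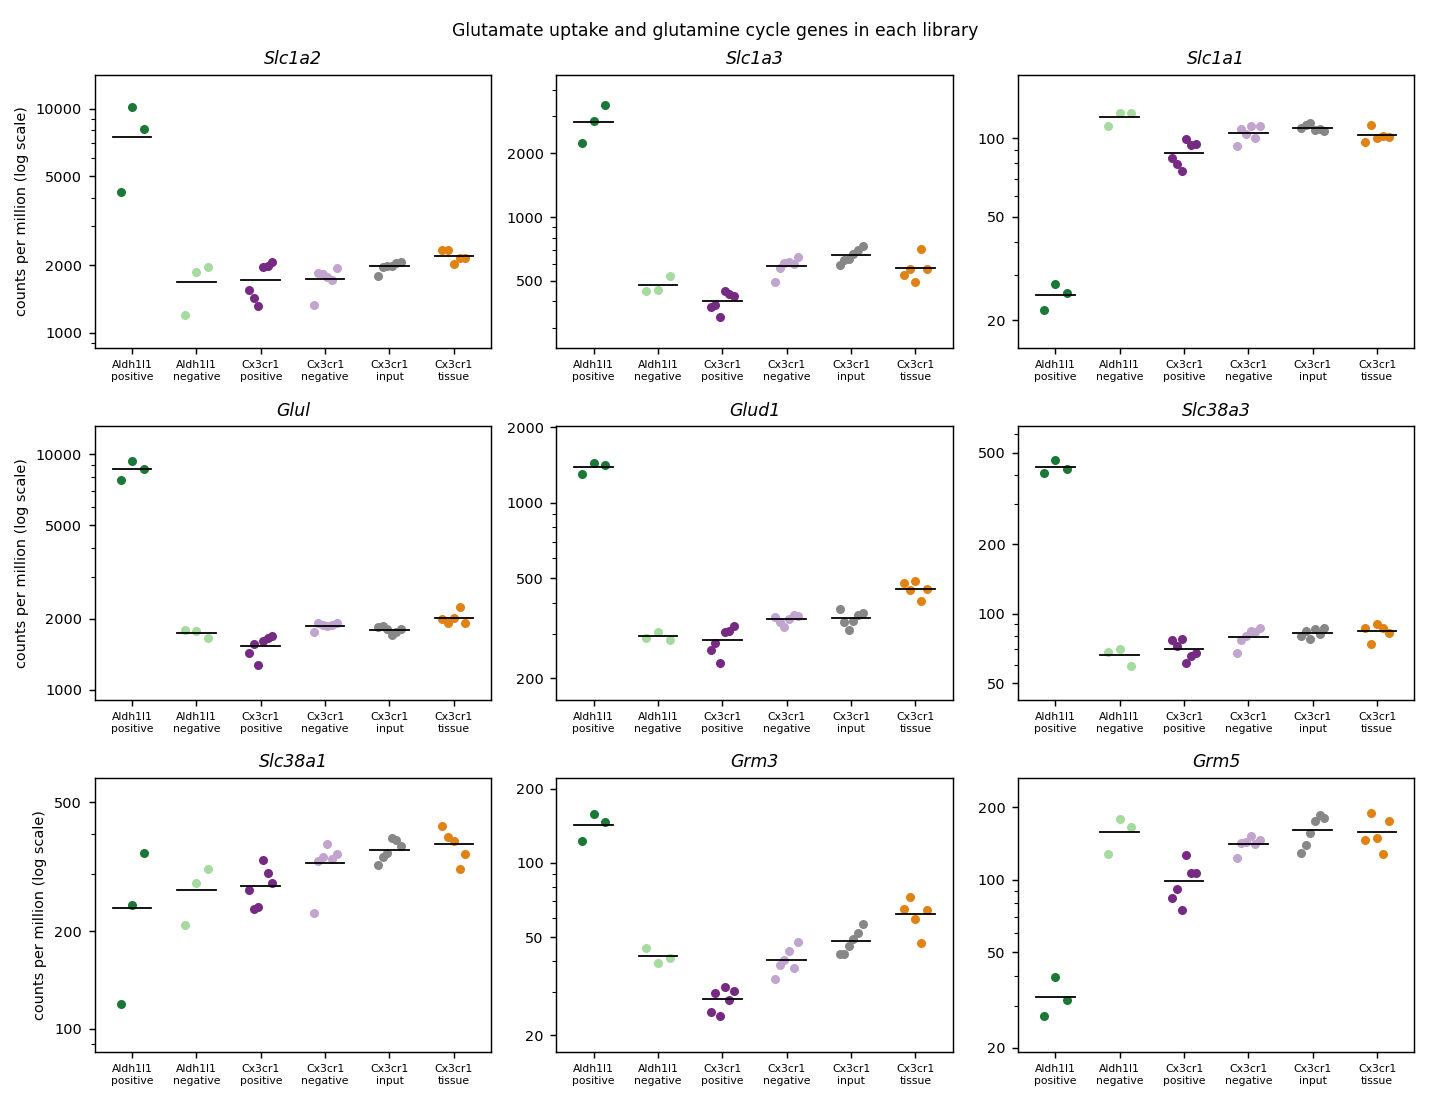
Level of each of the 9 genes in every library, in CPM on a log axis whose range differs by panel. Each point is 1 library, the bar is the group mean, and the groups are both fractions of Aldh1l1-NuTRAP (3 mice) and the positive, negative, input and tissue samples of the Cx3cr1-NuTRAP line (6 mice, 5 for tissue). For Slc1a2, Slc1a3, Glul, Glud1, Slc38a3 and Grm3 the Aldh1l1-NuTRAP positive libraries stand above all others, and for Slc1a1 and Grm5 they stand below all others.

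The enzymes of the cycle followed the astrocytic transporters. Glul, which makes glutamine from glutamate and ammonia and is used as an astrocyte marker, stood at 7789, 9388 and 8695 CPM in the positive fractions of mice 290, 293 and 294. In the negative fractions it stood at 1798, 1770 and 1652 CPM. The negative libraries thus lay within a narrow band and far under every positive library. The log2 fold change was 2.65 ± 0.14 (edgeR, adjusted p = 3.37e-05).

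Glud1, the mitochondrial enzyme that interconverts glutamate and 2-oxoglutarate, was at 1306, 1442 and 1416 CPM in the positive fractions. Its negative fractions held 288, 307 and 285 CPM. The log2 fold change, 2.59 ± 0.13 (edgeR, adjusted p = 3.37e-05), was close to that of Glul. Glul lies on chr1:153899945-153909714 and Glud1 on chr14:34310727-34345033, both on the plus strand. The table has 7 rows for processed copies of these enzyme genes, all at 0 in every library, so reads from such a copy, if any, could have been counted at the parent gene.

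The paired glutamine carriers separated. Slc38a3, a carrier that can release glutamine from astrocytes, was at 409, 464 and 425 CPM in the positive fractions and at 68.4, 70.3 and 59.3 CPM in the negative fractions. Of the 9 genes it had the largest log2 fold change, 3.06 ± 0.16 (edgeR, adjusted p = 3.37e-05), which ranked 223 of the 13319 genes tested. Slc38a1, a carrier that loads glutamine into neurons, was at 119, 242 and 348 CPM in the positive fractions and at 209, 283 and 312 CPM in the negative fractions. The range of Slc38a1 in the negative libraries lay within that of the positive libraries, and in CPM the positive fraction was the higher one in 1 of 3 mice. Its log2 fold change of 0.16 ± 0.35 (edgeR, adjusted p = 0.727) turned to -0.18 with library totals alone, and leaving out mouse 290, whose positive library was the lowest, gave 0.30 ± 0.17 (adjusted p = 0.16). Slc38a3 lies on chr9:107651155-107668968 and Slc38a1 on chr15:96571418-96642913, both on the minus strand.

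The receptors split as well. Grm3, a receptor coupled to inhibition of adenylyl cyclase, was at 123, 158 and 146 CPM in the positive fractions and at 45.1, 39.4 and 41.0 CPM in the negative fractions. The log2 fold change of Grm3 was 2.11 ± 0.16 (edgeR, adjusted p = 8.93e-05), the smallest among the 6 enriched genes. Grm5, a receptor coupled to calcium release and used by many forebrain neurons, was at 27.1, 39.3 and 31.7 CPM in the positive fractions and at 128, 179 and 166 CPM in the negative fractions. Every positive library lay below every negative library, with a log2 fold change of -1.92 ± 0.20 (edgeR, adjusted p = 0.000273). Grm3 lies on chr5:9485236-9725352, minus strand, and Grm5 on chr7:87584168-88135063, plus strand.

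Per kilobase of merged exons, levels can be compared between genes. In the Aldh1l1-NuTRAP positive fraction Glul came first with 2595 ± 241 CPM per kilobase (SD, n = 3), which placed it at rank 6 of the 14570 genes with a length. Slc1a2 followed with 570 ± 228, then Slc1a3 with 330 ± 65.9 and Glud1 with 330 ± 17.2 CPM per kilobase. By this length Slc1a3 and Glud1 did not differ beyond their spread. Slc38a3 had 82.1 ± 5.37, Grm3 46.7 ± 5.72 and Slc38a1 13.7 ± 6.66 CPM per kilobase. Grm5, with 3.19 ± 0.60, and Slc1a1, with 3.03 ± 0.34, were last and did not differ beyond their spread. With the longest transcript as the length, Slc1a3 (635 CPM per kilobase) came close to Slc1a2 (646 CPM per kilobase) and apart from Glud1 (409 CPM per kilobase), and Slc1a1 moved above Grm5. By merged exons both of these low genes ranked at 8060 and 8218 of the 14570 genes in that fraction. In the Cx3cr1-NuTRAP input the range was smaller, from 542 ± 17.8 CPM per kilobase for Glul to 13.3 ± 0.36 for Slc1a1 (SD, n = 6).

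The stretch of 250 bases before the RefSeq start site is shown for 3 genes that were higher in the Aldh1l1-NuTRAP positive fraction and for Slc1a1, which was lower, since these promoters differ in base composition although the first 3 genes moved together. Sequences are those of RefSeq on GRCm38.p6, 5′ to 3′ on the strand of the gene. Capitals mark 3 motifs searched on both strands: the GC box GGGCGG, the TATA box TATAAA and the E-box CANNTG. Glud1 has adjoining GC boxes.
Slc1a3 (chr15:8710808-8711057, minus strand): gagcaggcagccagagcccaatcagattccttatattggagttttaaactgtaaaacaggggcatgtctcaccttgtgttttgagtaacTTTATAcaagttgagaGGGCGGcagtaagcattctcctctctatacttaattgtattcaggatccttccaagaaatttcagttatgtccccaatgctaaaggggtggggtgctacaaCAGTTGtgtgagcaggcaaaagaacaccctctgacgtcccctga
Glul (chr1:153899679-153899928, plus strand): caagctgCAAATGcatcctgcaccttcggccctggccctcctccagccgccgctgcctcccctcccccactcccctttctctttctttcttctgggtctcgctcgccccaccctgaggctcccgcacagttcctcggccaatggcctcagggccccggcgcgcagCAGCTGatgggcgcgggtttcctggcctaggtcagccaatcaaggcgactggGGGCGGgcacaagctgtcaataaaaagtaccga
Glud1 (chr14:34310477-34310726, plus strand): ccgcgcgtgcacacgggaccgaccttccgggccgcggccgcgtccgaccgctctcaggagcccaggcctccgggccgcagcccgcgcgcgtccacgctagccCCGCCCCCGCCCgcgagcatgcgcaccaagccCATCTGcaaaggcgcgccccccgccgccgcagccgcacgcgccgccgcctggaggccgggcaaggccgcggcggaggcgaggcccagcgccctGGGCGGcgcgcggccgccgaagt
Slc1a1 (chr19:28834885-28835134, plus strand): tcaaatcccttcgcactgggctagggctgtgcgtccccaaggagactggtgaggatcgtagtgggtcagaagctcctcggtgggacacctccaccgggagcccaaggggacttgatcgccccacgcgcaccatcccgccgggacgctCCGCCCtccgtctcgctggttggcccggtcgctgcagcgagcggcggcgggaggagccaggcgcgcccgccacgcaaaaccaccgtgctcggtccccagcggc
The Slc1a3 window holds 44.8% G and C with 2 CpG sites, that of Glul 64.8% with 15, that of Glud1 82.0% with 46 and that of Slc1a1 70.4% with 27. The median over 32851 promoters was 52.4% with 6 CpG sites. A GC box was found in all 4 windows and in 32.7% of all promoters, and a TATA box in the Slc1a3 window and in 12.4% of all promoters. An E-box was found in the Slc1a3, Glul and Glud1 windows and in 66.2% of all promoters. The element TTGGCA of NFI factors was in none of the 4 windows and in 12.3% of all promoters. These matches describe letters and were not measured as binding. Of the 9 genes, 6 had an entry, Slc1a2 and Grm3 included. The Grm3 window, which is not shown, holds a GC box and no E-box, although Grm3 too was higher in the Aldh1l1-NuTRAP positive fraction. The Slc1a2 entry begins 47755 bases inside the deposited gene and is not shown.

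In the Cx3cr1-NuTRAP positive fraction the levels in bead-bound RNA were set against those of the input, the homogenate before the pull-down. None of the 9 was higher and 8 were lower than in input, where 23.3% of all tested genes were called higher and 25.6% lower. The reductions were modest beside the enrichment in astrocytes: the median log2 fold change was -0.31 over the 9 genes and 0.00 over all 13838 genes tested.

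Grm3 fell most. It ranged from 24.0 to 31.3 CPM with a median of 28.8 in the 6 positive libraries and from 42.6 to 56.5 CPM with a median of 47.7 in the 6 inputs. The groups did not overlap, and the log2 fold change was -0.77 ± 0.09 (edgeR, adjusted p = 1.27e-05). Slc1a3 ranged from 338 to 447 CPM in the positive libraries and from 595 to 732 CPM in the inputs, again without overlap, for a log2 fold change of -0.70 ± 0.08 (edgeR, adjusted p = 8.41e-06). Grm5 was between 74.7 and 127 CPM against 129 to 186 CPM in the inputs, for a log2 fold change of -0.70 ± 0.12 (edgeR, adjusted p = 0.000428). For all 3 genes the positive fraction was below the input in each of the 6 mice.

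The remaining genes were lower by smaller amounts. Slc38a1 had a log2 fold change of -0.36 ± 0.09 (edgeR, adjusted p = 0.00391, and 0.0731 in the fit over all 6 groups), and Slc1a1 one of -0.31 ± 0.07 (adjusted p = 0.00194). Glud1 was at 230 to 322 CPM in the positive fraction and 312 to 378 CPM in input, a log2 fold change of -0.28 ± 0.08 (edgeR, adjusted p = 0.00959). Glul, at 1270 to 1684 CPM against 1711 to 1872 CPM, had a log2 fold change of -0.22 ± 0.07 (edgeR, adjusted p = 0.0202), and it lost its call when mouse 155, 192 or 194 was left out and without the filter on low counts (adjusted p = 0.0507). Slc38a3 had a log2 fold change of -0.22 ± 0.08 (edgeR, adjusted p = 0.0259), which the fit with the mouse as a block moved to -0.23 with adjusted p = 0.0649. Its call also ended without mouse 192, 209, 210 or 277, and with RLE scaling (adjusted p = 0.0516).

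Slc1a2 was the gene whose difference from input was not called. It ranged from 1316 to 2061 CPM in the positive libraries and from 1797 to 2077 CPM in the inputs, and its log2 fold change was -0.19 ± 0.11 (edgeR, adjusted p = 0.139). The positive fraction was below the input in each of the 6 mice, with ratios of the CPM values from 0.66 to 0.992.

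The positive libraries of the Cx3cr1-NuTRAP line also differed among themselves. The library of mouse 194 had the lowest level of 7 of the 9 genes and the highest level of Slc38a3, at 77.7 CPM. The same library had the highest sum of microglial markers, 7630 CPM, the lowest sum of astrocyte markers, 1263 CPM, and the lowest sum of neuronal markers, 5022 CPM. Its oligodendrocyte markers summed to 1357 CPM against 2918 to 3604 CPM in the other 5 libraries, and its choroid plexus markers to 215.7 CPM against 506.6 to 1034 CPM. The library of mouse 209 had the highest level of 5 of the 9 genes and the lowest level of Slc38a3, at 61.0 CPM, with the lowest microglial sum, 3187 CPM, the highest neuronal sum, 7749 CPM, and the highest oligodendrocyte sum, 3604 CPM. Between positive fraction and input, 6 of 8 astrocyte, 2 of 8 neuronal, 7 of 8 oligodendrocyte, 4 of 4 oligodendrocyte precursor and 3 of 5 choroid plexus markers were lower, and 3 of 5 endothelial markers were higher. The part of RNA from these cell types in the results was not tested.

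Against the negative fraction, which had passed over the same beads, none of the 9 genes was higher and 6 were lower, where 12.8% of all tested genes were called higher and 11.6% lower. Slc1a3 had a log2 fold change of -0.53 ± 0.08 (edgeR, adjusted p = 0.000321). Grm3 and Grm5 both stood at -0.50, with adjusted p = 0.00156 and 0.00374. Glul, Glud1 and Slc1a1 followed with -0.26, -0.25 and -0.23. With the mouse as a block, the count of lower genes was 4, as Glul (adjusted p = 0.0542) and Slc1a1 (adjusted p = 0.0743) were no longer called. Without mouse 192 the count was 3, namely Slc1a3, Grm3 and Grm5. Without mouse 155 it was 7, with Slc38a3 and Slc38a1 called and Glud1 not. Slc1a1, Glul and Glud1 each lost the call in 2 or more of the 6 fits that left out a mouse, and the other 3 lower genes kept it. Slc1a2 differed by 0.01 ± 0.12 (edgeR, adjusted p = 0.977), with levels of 1323 to 1940 CPM in the negative libraries. Of the markers, 6 of 8 astrocyte, 7 of 8 oligodendrocyte, 2 of 4 oligodendrocyte precursor and 3 of 5 choroid plexus ones were lower. The same held for 1 of 8 neuronal markers. Higher were 8 of 8 microglial and 2 of 5 endothelial ones, and 1 of 4 pericyte and smooth muscle markers went each way. Their part in the result was not tested.

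Against whole tissue all 9 genes were lower, where 27.5% of all tested genes were called higher and 24.3% lower. Grm3, at 47.3 to 73.0 CPM in the 5 tissue libraries, had the largest log2 fold change, -1.13 ± 0.11 (edgeR, adjusted p = 3.9e-06). Glud1, at 405 to 490 CPM in tissue, came next with -0.67 ± 0.09 (edgeR, adjusted p = 5.29e-05). With the mouse as a block the count was 6, since Slc1a2 (adjusted p = 0.0952), Slc38a3 (adjusted p = 0.0659) and Slc1a1 (adjusted p = 0.118) were not called. The same 3 genes lost their calls in some of the fits that left out a mouse, Slc1a2 without mouse 192 or 194. In the same comparison 7 of 8 astrocyte, 8 of 8 oligodendrocyte, 4 of 4 oligodendrocyte precursor, 3 of 5 endothelial, 3 of 4 pericyte and smooth muscle, 3 of 3 ependymal and 1 of 8 neuronal markers were lower, and 8 of 8 microglial and 3 of 8 neuronal markers were higher. Their part in the result was not tested. The comparisons with input, negative fraction and tissue share the same positive libraries and are not separate evidence.

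**Figure D2:**
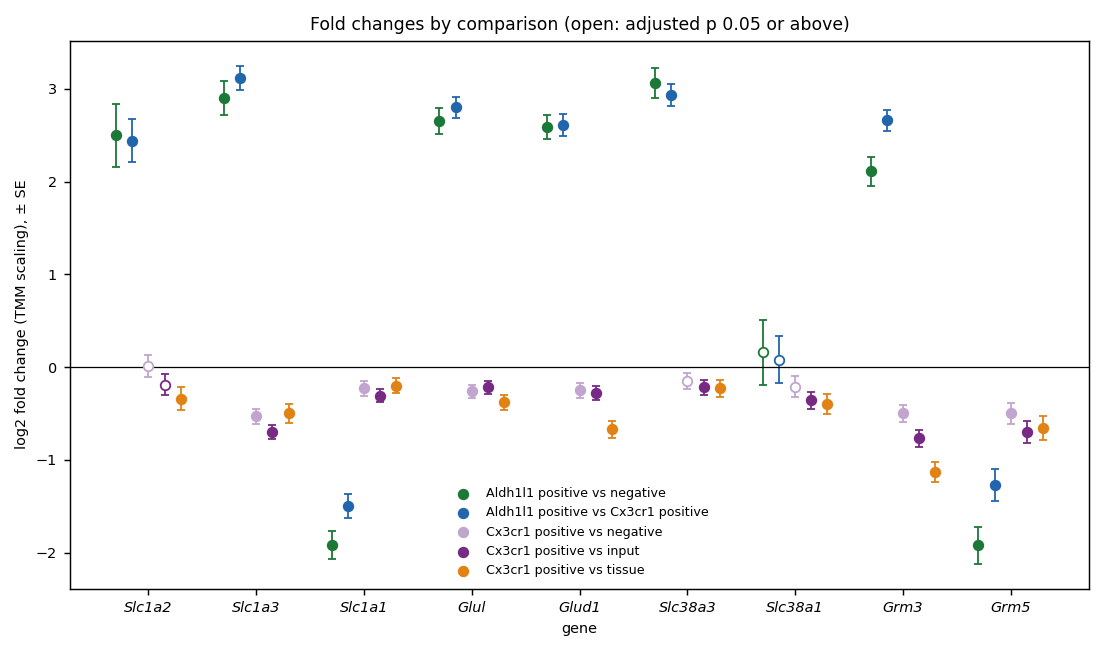
Log2 fold changes of the 9 genes from edgeR with TMM scaling, for 5 comparisons drawn in different colours, with the standard error as bars. Filled points have adjusted p under 0.05. The changes in the Aldh1l1-NuTRAP positive fraction run from -1.92 to 3.06 against its negative fraction, and those of the Cx3cr1-NuTRAP positive fraction lie between -1.13 and 0.01.

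The samples without enrichment were compared as a background. Between negative fraction and input of the Cx3cr1-NuTRAP mice, 0 of the 9 genes were called higher and 0 lower by edgeR, where 1.41% of all tested genes were higher and 4.70% lower. The log2 fold changes ran from -0.25 for Grm3 to 0.06 for Glul. Slc1a2, Slc1a3, Grm3 and Grm5 had an unadjusted p under 0.05 (edgeR), a threshold for which no share of all genes is given. DESeq2 called 1 gene lower, Grm3. With the mouse as a block, 5 genes were lower, and these were Slc1a2, Slc1a3, Slc38a1, Grm3 and Grm5, with log2 fold changes from -0.25 to -0.14. The shares of all genes given above belong to the main fit, so they are no measure for the counts of other fits. The negative library of mouse 155 had the lowest level of 8 of the 9 genes in its group, for example Slc1a2 at 1323 CPM against 1722 to 1940 CPM in the other 5. Leaving out mouse 155 gave 4 lower genes, Slc1a2, Slc1a3, Grm3 and Grm5.

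Input against whole tissue gave 0 higher and 4 lower genes, where 16.3% of all tested genes were higher and 14.2% lower. Glud1 was at 312 to 378 CPM in input and 405 to 490 CPM in tissue, without overlap, for a log2 fold change of -0.39 ± 0.06 (edgeR, adjusted p = 0.000368). Grm3 (-0.38, adjusted p = 0.0118), Glul (-0.17, adjusted p = 0.0177) and Slc1a2 (-0.16, adjusted p = 0.0448) were the others, and the call of Slc1a2 held in 5 of 12 alternatives. Of the markers, 3 of 8 astrocyte, 7 of 8 oligodendrocyte, 2 of 4 oligodendrocyte precursor, 5 of 5 endothelial, 4 of 4 pericyte and smooth muscle, 3 of 3 ependymal and 2 of 8 neuronal ones were lower in input, and 4 of 8 neuronal and 2 of 5 choroid plexus ones were higher. Their part in the result was not tested. With the mouse as a block, 1 gene was lower, Glud1. The fits that left out 1 mouse gave 2 to 4 lower genes, Glud1 in each of them. The tissue library of mouse 210, the shallowest of all, stood apart in several genes, with the highest Slc1a3 (710 CPM) and Glul (2252 CPM) and the lowest Grm3 (47.3 CPM) of the tissue samples. It also had the highest sums of microglial (553.9 CPM, the others at 363.4 to 418.7) and neuronal markers (7032 CPM, the others at 5907 to 6459), and the lowest sums of endothelial (144.6 CPM, the others at 234.7 to 263.2) and oligodendrocyte precursor markers (111.3 CPM, the others at 164.8 to 216.4). Without mouse 210, Slc1a3 was higher in input by 0.26 on the log2 scale (edgeR, adjusted p = 0.0103) and 4 genes were lower.

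Between the negative fractions of the lines, 0 of 9 genes were called higher and 0 lower in Aldh1l1-NuTRAP against Cx3cr1-NuTRAP by edgeR, where 0.125% of all tested genes were higher and 0.125% lower. The largest difference was that of Slc1a3, -0.27 ± 0.09 (edgeR, adjusted p = 0.224). An unadjusted p under 0.05 (edgeR) was found for Slc1a3, Slc1a1, Glud1 and Slc38a3, and no share of all genes at that threshold is given. DESeq2 called 1 gene higher, Slc1a1. The standard errors ran up to 0.15, so the levels are not shown to be equal. Of the markers, 2 of 8 astrocyte and 1 of 5 choroid plexus ones were lower in Aldh1l1-NuTRAP. Higher were 2 of 8 oligodendrocyte and 1 of 8 microglial ones. Astrocyte markers summed to between 1611 and 1753 CPM in Aldh1l1-NuTRAP and to between 2196 and 2466 CPM in Cx3cr1-NuTRAP. For oligodendrocyte markers the sums were 6158 to 7460 CPM and 4872 to 5402 CPM. Their part in the result was not tested.

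Between the positive fractions of the lines, 6 of the 9 genes were higher and 2 lower in Aldh1l1-NuTRAP, where 30.6% of all tested genes were higher and 33.1% lower. With library totals alone all genes split into 2875 higher and 6312 lower in place of 4188 and 4530, with a median of -0.39 in place of -0.08, and the 8 calls stayed. Slc1a3 stood furthest apart, at 2816 ± 562 CPM (SD, n = 3) against 401 ± 42.0 CPM (SD, n = 6), a log2 fold change of 3.12 ± 0.13 (edgeR, adjusted p = 1.84e-08). Slc38a3, Glul, Grm3, Glud1 and Slc1a2 followed with log2 fold changes of 2.93, 2.80, 2.66, 2.61 and 2.44. Slc1a1 was lower, with a log2 fold change of -1.50 ± 0.13 (edgeR, adjusted p = 2.07e-06), and so was Grm5, with -1.27 ± 0.17 (edgeR, adjusted p = 8.37e-05). Of the markers, 8 of 8 astrocyte, 5 of 5 choroid plexus and 2 of 3 ependymal ones were higher. So were 1 of 4 pericyte and smooth muscle and 1 of 8 oligodendrocyte ones. Lower were 8 of 8 microglial, 8 of 8 neuronal and 7 of 8 oligodendrocyte ones. The same held for 3 of 4 oligodendrocyte precursor and 1 of 5 endothelial ones. The median was 3.3 for astrocyte and -1.5 for neuronal markers. Their part in the result was not tested. The line and any other difference between the sets of mice cannot be told apart here, as each mouse belongs to 1 line.

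Whether the ratio of positive to negative fraction differed between lines was tested in 1 fit over the 4 groups. The difference was called for 8 of the 9 genes, where 55.4% of 13983 genes were called in either direction. It was 3.39 ± 0.16 on the log2 scale for Slc1a3 (edgeR, adjusted p = 1.5e-11), the largest of the 9, and 2.46 ± 0.30 for Slc1a2 (adjusted p = 1.77e-06). For Grm3 the difference was 2.57 ± 0.16 (edgeR, adjusted p = 2.91e-10), and Slc1a1 and Grm5 had differences of -1.73 and -1.47. With library totals alone, all genes split into 2600 higher and 5719 lower in place of 3572 and 4179, with a median of -0.39 in place of -0.11, and the 8 calls stayed. For Slc38a1 the difference was 0.32 ± 0.31 (edgeR, adjusted p = 0.388). Of the markers, 8 of 8 astrocyte, 5 of 5 choroid plexus and 2 of 4 ependymal ones were called higher. So were 1 of 4 pericyte and smooth muscle and 1 of 8 oligodendrocyte ones. Lower were 8 of 8 microglial, 8 of 8 neuronal and 7 of 8 oligodendrocyte ones. The same held for 3 of 4 oligodendrocyte precursor and 2 of 5 endothelial ones. The median was 3.63 for astrocyte and -1.52 for neuronal markers. Their part in the result was not tested.

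Ratios of counts between paired genes in the same library do not depend on library scaling. Grm3 over Grm5 was between 4.01 and 4.61 in the 3 Aldh1l1-NuTRAP positive libraries and between 0.220 and 0.352 in the negative ones, so the receptor with more counts was Grm3 in the first and Grm5 in the second. The mean log2 difference was 4.03 (two-sided exact permutation test, p = 0.10, the smallest that 3 against 3 allows, adjusted p = 0.171 over 12 comparisons of ratios). Slc38a3 over Slc38a1 was between 1.22 and 3.43 in the positive libraries and between 0.190 and 0.326 in the negative libraries (log2 difference 3.01, exact permutation p = 0.10, adjusted p = 0.171). Neither pair of groups overlapped.

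Glul over Glud1 ranged from 5.96 to 6.51 in the positive and from 5.77 to 6.24 in the negative libraries (log2 difference 0.06, exact permutation p = 0.30, adjusted p = 0.36). Slc1a2 over Slc1a3 ranged from 1.89 to 3.58 in the positive and from 2.66 to 4.11 in the negative libraries (log2 difference -0.44, exact permutation p = 0.20, adjusted p = 0.267). These ranges overlapped, while within each of the 3 mice the positive fraction had the lower ratio, at 1.89, 3.58 and 2.40 against 2.66, 4.11 and 3.71 in mice 290, 293 and 294.

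In the Cx3cr1-NuTRAP line the ratio of Slc1a2 to Slc1a3 was 3.70 to 4.84 in the positive fraction and 2.84 to 3.15 in input, without overlap. The log2 difference was 0.49 (two-sided exact permutation test, p = 0.00216, the smallest that 6 against 6 allows, adjusted p = 0.026). The test shuffled libraries without regard to the mouse, so it ignored that both groups came from the same 6 mice. Within each of the 6 mice the positive fraction had the higher ratio. With any 1 mouse left out the adjusted p was 0.0857, a value set by the smallest p-values that these group sizes allow. Those fits therefore cannot decide whether the call depends on 1 mouse. The ratio in whole tissue was 3.02 to 4.37, which reached into both ranges. For Grm3 over Grm5, Slc38a3 over Slc38a1 and Glul over Glud1 the positive fraction and input differed by -0.07, 0.14 and 0.07 on the log2 scale, with exact permutation p = 0.398, 0.344 and 0.186. Between the positive fractions of the lines, each of the 4 ratios gave the smallest p that 3 against 6 allows, 0.0238 (exact permutation), with adjusted p = 0.0571.

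**Figure D3:**
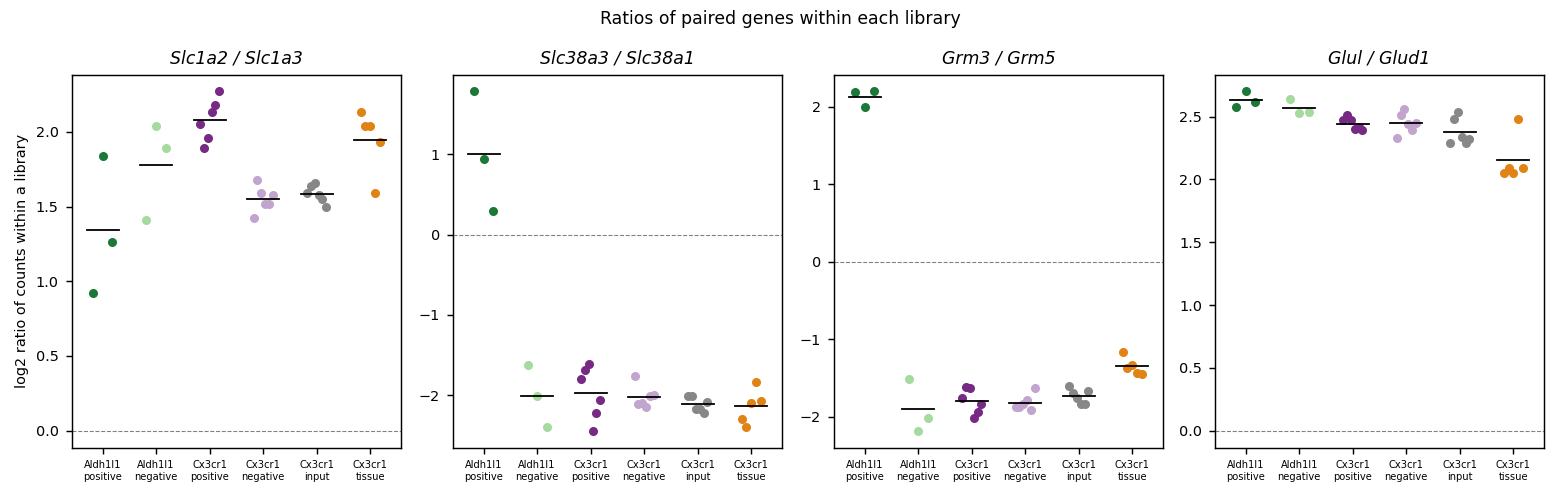
Log2 ratio of counts of 4 gene pairs within each library, with 1 point per library and the group mean as a bar; each panel has its own axis and 0 is marked by a dashed line. Grm3 over Grm5 and Slc38a3 over Slc38a1 are above 0 in the Aldh1l1-NuTRAP positive libraries and below 0 in every other library, while Glul over Glud1 stays between 2.05 and 2.70 throughout.

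Across the 6 groups, 6 of the 9 genes had their highest level in CPM in the Aldh1l1-NuTRAP positive fraction, and the order of the other groups differed between genes. Slc1a2 was highest in the Aldh1l1-NuTRAP positive fraction (7490 ± 2992 CPM, SD, n = 3), and the other 5 groups, from tissue (2204 ± 138 CPM) to the Aldh1l1-NuTRAP negative fraction (1676 ± 417 CPM), overlapped with their neighbours. Slc1a3 was lowest in the Cx3cr1-NuTRAP positive fraction, whose range did not meet that of the next group, the Aldh1l1-NuTRAP negative fraction (478 ± 45.1 CPM). Grm3 had the same lowest group, at 27.96 ± 2.99 CPM, below the Cx3cr1-NuTRAP negative fraction at 40.3 ± 4.92 CPM. Slc1a1 and Grm5 had the Aldh1l1-NuTRAP positive fraction as the lowest group (25.0 ± 2.79 and 32.7 ± 6.18 CPM), apart from the Cx3cr1-NuTRAP positive fraction above it (87.8 ± 9.75 and 98.5 ± 18.9 CPM). For Slc38a1 every neighbouring pair in the order overlapped, from tissue (371 ± 43.2 CPM) to the Aldh1l1-NuTRAP positive fraction (237 ± 115 CPM).

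The genes whose centred log2 CPM over the 29 libraries lay nearest to each member, out of 14109 genes, were found by the root mean square difference. For Slc1a3 these were Ezr (0.16), Ppap2b (0.16) and Ddah1 (0.17), and for Slc1a2 they were Rgma (0.14), Gng12 (0.16) and Psd2 (0.16). Glul lay nearest to Wnt7b (0.11), Aldh7a1 (0.12) and St3gal4 (0.13), and Glud1 to Pygb (0.09), Zcchc24 (0.10) and Mpp6 (0.12). Slc38a3 lay nearest to Prodh (0.15), which encodes proline dehydrogenase, then Hepacam (0.16) and Acss1 (0.16). Slc1a1 lay nearest to Prkcz, Scn2b and Dnm1 (each 0.11), Grm5 to Pcsk2 (0.12), Vstm2a (0.13) and Cacna2d1 (0.13), Grm3 to Sash1 (0.14), Agpat3 (0.18) and Acsl6 (0.18), and Slc38a1 to Jmy (0.12), Zfp608 (0.14) and St3gal2 (0.14). The libraries share mice, depth and the contrast of fractions, so these distances are a description.

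Further genes of glutamate and glutamine handling were described from a list of 29 outside the 9 members. In the Aldh1l1-NuTRAP positive against negative fraction 25 of them could be tested, 7 were higher and 16 lower, where 26.8% of all tested genes were higher and 24.8% lower, and their median log2 fold change was -1.35 against 0.04 over all genes. In the SLC1 family Slc1a4, a carrier of alanine, serine and cysteine, had the largest change, from 58.4 to 164 CPM and a log2 fold change of 1.84 ± 0.19 (edgeR, adjusted p = 0.000276). Slc1a6, the transporter of Purkinje neurons, had a log2 fold change of -0.97 ± 0.34 (adjusted p = 0.0455).

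Among enzymes that form glutamate or move its amino group, 2 of 7 were higher and 5 lower. The alanine aminotransferase Gpt had the largest change, at 59.8 against 17.4 CPM and a log2 fold change of 2.14 ± 0.19 (edgeR, adjusted p = 0.000166). Both subunits of the cystine-glutamate exchanger were higher, with Slc7a11 at 124 against 42.6 CPM and a log2 fold change of 1.89 ± 0.17 (edgeR, adjusted p = 0.000146).

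The vesicular glutamate transporters were lower, 3 of 3, with Slc17a6 at 24.2 against 104 CPM (log2 fold change -1.76 ± 0.16, edgeR, adjusted p = 0.000163). Of the other metabotropic receptors 5 of the 5 tested were lower, led by Grm7 at 10.6 against 44.8 CPM (log2 fold change -1.73 ± 0.18, edgeR, adjusted p = 0.000268), while Grm6 was too low to test. Grm3 was therefore the one metabotropic receptor of the 7 tested, Grm5 included, that was higher. Folh1, an enzyme that cleaves N-acetylaspartylglutamate, the peptide that acts on Grm3, was at 21.2 against 4.74 CPM (log2 fold change 2.48 ± 0.34, edgeR, adjusted p = 0.000963). Of the glutamine carriers tested, Slc38a2 was lower, with a log2 fold change of -1.51 ± 0.23 (edgeR, adjusted p = 0.00144) and Slc38a7 was not called (-0.36 ± 0.27, adjusted p = 0.309).

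In the Cx3cr1-NuTRAP positive fraction against input, 26 of the 29 genes could be tested, 2 were higher and 11 lower, where 23.3% of all tested genes were higher and 25.6% lower, and the median log2 fold change was -0.23 against 0.00 over all genes. The higher ones were Naalad2, a peptidase related to Folh1, at 3.56 against 1.12 CPM, and Slc3a2, the heavy chain of amino acid exchangers, at 139 against 126 CPM (log2 fold change 0.15 ± 0.05, edgeR, adjusted p = 0.0258). Naalad2 passed the filter on low counts only through the positive fraction, where it is high, so its call is not read as a result. Slc7a11, the light chain of the cystine-glutamate exchanger, was lower, at 32.3 against 55.1 CPM (log2 fold change -0.76 ± 0.11, edgeR, adjusted p = 0.000102).

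**Figure D4:**
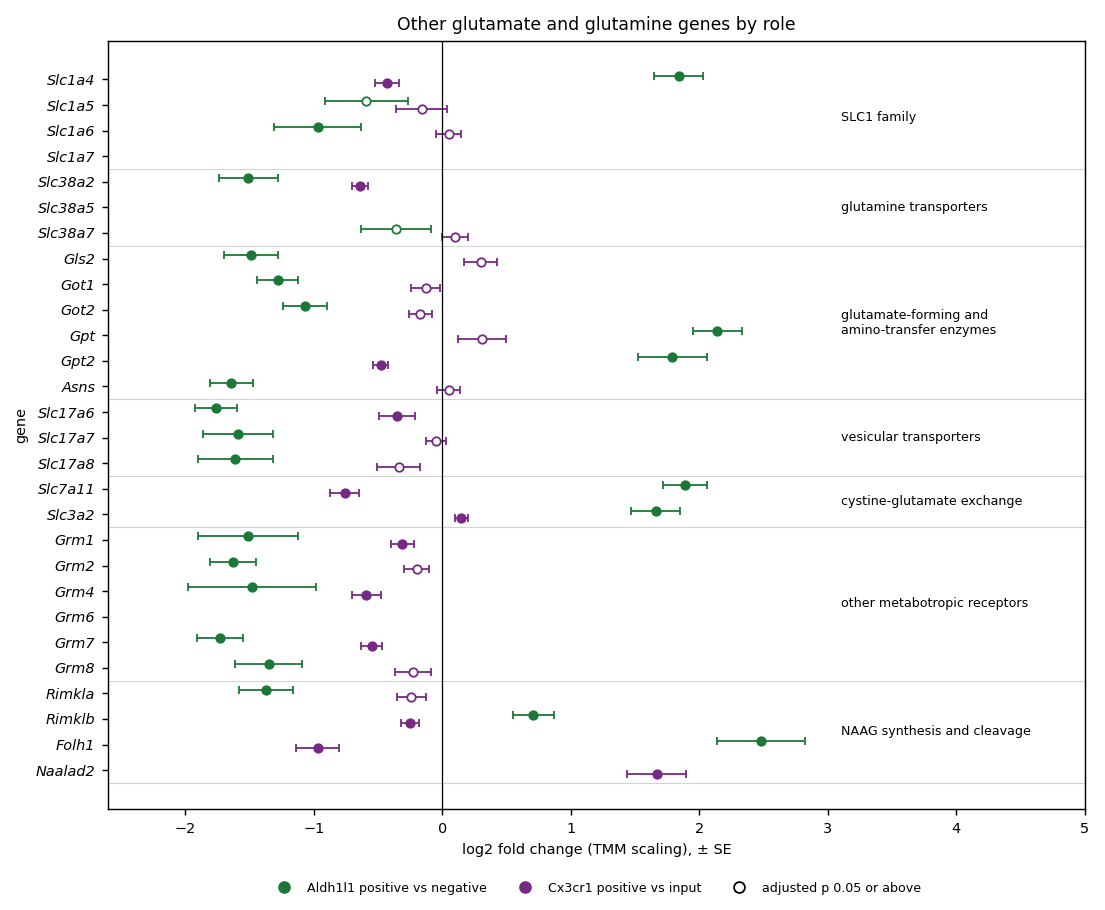
Log2 fold changes (edgeR, TMM scaling, bars are the standard error) of 28 of the further glutamate and glutamine genes, grouped by role, in the Aldh1l1-NuTRAP positive against negative fraction and in the Cx3cr1-NuTRAP positive fraction against input. Filled points have adjusted p under 0.05 and genes too low to test have no point. Of the genes drawn, 7 are higher and 15 lower in the first comparison, and 2 are higher and 10 lower in the second.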

How the data were processed

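TRAP-RNAseq libraries from 9 mice were analysed: both fractions of 3 Aldh1l1-NuTRAP mice and the fractions, input and (for 5) tissue of 6 Cx3cr1-NuTRAP mice. Input and tissue of the first line were not analysed here. Libraries were directional and poly(A)-selected. The authors trimmed and aligned the reads to mm10 in Strand NGS and kept reads in the proper orientation, and the table counts them by RefSeq gene per the file header. The deposited raw columns hold expected counts per gene, 81.5% of nonzero values not being whole (tolerance 0.0001), and they were rounded before testing. The deposited log2 columns, which the authors normalized by DESeq and put on a log scale, were not used. All value columns matched a sample (0 without).

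Levels are CPM, counts scaled to a library total of 1000000 (the totals were 4260949 to 26857866 counts). Fold changes came from edgeR 4.0.16 (R 4.3.3) with TMM scaling, a robust quasi-likelihood fit and Benjamini-Hochberg adjustment over all genes that exceeded 20 counts throughout at least 1 compared group. Each comparison used its own groups, and the difference between lines was an interaction term over 4 groups. Ratios within a library used a pseudocount of 0.5 and an exact permutation test (SciPy 1.17.1) that shuffled libraries without regard to the mouse. Exon lengths were from GENCODE M21. Alternatives were RLE scaling, library totals alone, DESeq2 1.42.0, no filter, all 6 groups in one fit, each mouse left out and the mouse as a block. Percentages of all genes called belong to the main fits and are not matched to counts from the alternatives. The edgeR p-values of the main fits rest on the spread between libraries within a group, with no term for the mouse. Those of the ratios rest on shuffled library labels.

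Same-numbered libraries are from 1 animal. Their deviations from group means correlated at 0.44 to 0.64 in all 3 Aldh1l1-NuTRAP pairs, above 0.1 in 3 of 6 pairs of Cx3cr1-NuTRAP positive fraction and input, in 5 of 6 pairs of negative fraction and input, and in 0 of 5 pairs with tissue. The unblocked fit was kept as the main one, after the study's one-way tests.

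The 9 members and all lists were chosen with earlier results of these data known. All members are named. Of the further pathway genes, the one with the largest called change in each role group is named (1 gene of the list is counted but not reported here), and a few others (Slc1a6, Slc38a2, Slc38a7, Naalad2, Slc3a2 and Slc7a11 in the Cx3cr1-NuTRAP comparison) were chosen after their values were seen.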

Additional observations from a re-analysis of the deposited data

Results flagged for a closer look

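Among 52 sets of 5 or 6 libraries (9 levels and 4 ratios in 4 groups), 4 had a library far from the rest by Dixon's test, which flags about 1 in 20 sets by chance. The negative fraction of Cx3cr1-NuTRAP mouse 155 was low for Slc1a2 (1323 CPM, the other 5 at 1722 to 1940), Glul (1754 CPM, the others at 1866 to 1928) and Slc38a1 (227.6 CPM, the others at 330 to 371). In its group that library had the lowest sums of astrocyte markers (2196 CPM, the others at 2213 to 2466), neuronal markers (6815 CPM) and oligodendrocyte precursor markers (65.2 CPM, the others at 90.6 to 100.1), and the highest sums of microglial (453 CPM) and choroid plexus markers (1391 CPM). Their part in the low values was not tested. In the tissue of mouse 210 the log2 ratio of Glul to Glud1 was 2.48, and that library had the lowest total count.

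The ratio of positive to negative fraction differed between the lines for 8 genes (edgeR interaction term, 3 and 6 mice). The log2 differences, Aldh1l1-NuTRAP minus Cx3cr1-NuTRAP, were 3.39 for Slc1a3, 3.16 for Slc38a3, 2.87 for Glul, 2.80 for Glud1, 2.57 for Grm3, 2.46 for Slc1a2, -1.47 for Grm5 and -1.73 for Slc1a1, with adjusted p from 3.42e-12 to 5.51e-06.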

How the results depend on the processing

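The 6 higher and 2 lower calls in the Aldh1l1-NuTRAP positive against negative fraction, the 6 and 2 between positive fractions, and the 8 differences between lines held in number under every alternative run for them. The mouse as a block was not run between positive fractions. The fit over all 6 groups was not run for the differences between lines. With the mouse as a block the lower genes numbered 4 rather than 6 in Cx3cr1-NuTRAP positive against negative fraction, 6 rather than 9 against tissue, 7 rather than 8 against input, 5 rather than 0 in negative fraction against input and 1 rather than 4 in input against tissue. DESeq2 gave 1 lower gene in negative fraction against input and 1 higher gene between negative fractions, and without the filter on low counts input against tissue gave 2 lower genes; the cause was not tested. All 6 groups in one fit gave 3 lower genes there, with Slc1a2 at adjusted p = 0.399 (edgeR). Fits without 1 mouse gave 3 to 7 lower genes in Cx3cr1-NuTRAP positive against negative fraction and 0 to 4 in negative fraction against input. In input against tissue they gave 0 to 1 higher and 2 to 4 lower genes. No share of all genes is given here for the alternatives, so their counts are not read as results about the 9 genes. The log2 difference of Slc1a2 over Slc1a3 between Cx3cr1-NuTRAP positive fraction and input was 0.44 to 0.54 without 1 mouse. The adjusted p was 0.0857 in each case (exact permutation test). That value is set by the smallest p-values that the smaller groups allow over all ratios tested, so it cannot show whether the call depends on 1 mouse.

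Signs turned for genes that were not called. Slc38a1 went to -0.18 (Aldh1l1-NuTRAP positive against negative fraction) and -0.23 (between positive fractions) with library totals alone, and to -0.11 to 0.30 and -0.29 to 0.38 in fits without 1 mouse. Slc1a2 in Cx3cr1-NuTRAP positive against negative fraction went to -0.019 with library totals, -0.0021 with the replicate block, and -0.037 to 0.094 without 1 mouse. Between negative fractions Slc1a2 went to 0.0054 with all 6 groups in one fit and -0.14 to 0.15 without 1 mouse. Grm5 in input against tissue went to -0.006 with all 6 groups and -0.086 to 0.10 without 1 mouse, and Glud1 in negative fraction against input to -0.017 to 0.0018 without 1 mouse. Of 873 refitted fold changes, 54 lost and 14 gained a call.

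Depth limits little here, as the lowest count of any of the 9 genes in a library was 202. With 3 Aldh1l1-NuTRAP mice, the exact permutation test of a ratio within that line could not go below p = 0.10.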

Other observations

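Of the 29 further glutamate and glutamine genes, 27 could be tested for how the positive over negative ratio differed by line (edgeR interaction term). The log2 difference, Aldh1l1-NuTRAP minus Cx3cr1-NuTRAP, was called higher for 7 and lower for 18 of them, with a median of -1.14 against -0.11 over all 13983 genes tested, of which 3572 were called higher and 4179 lower. Folh1, which cleaves N-acetylaspartylglutamate, had a difference of 3.23 ± 0.34 (edgeR, adjusted p = 2.64e-07). The related peptidase Naalad2 is 1 of the lower genes, but it passed the filter on low counts only through the Cx3cr1-NuTRAP positive fraction, where it is high, so its call is not read as a result. Slc7a11 of the cystine-glutamate exchanger differed by 2.43 ± 0.19 (edgeR, adjusted p = 4.91e-09) and its partner Slc3a2 by 1.56 ± 0.15 (adjusted p = 6.67e-08). The alanine aminotransferase Gpt2 differed by 2.13 ± 0.21 (edgeR, adjusted p = 1.55e-07). These genes were picked from the list after their values were seen.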
